A study of Bos indicus x Bos taurus with 17 samples.

Results

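The facilitative glucose transporters of the SLC2A family (the GLUT proteins) were described in fetal bovine liver and skeletal muscle. The 8 genes were chosen by symbol (SLC2A1, SLC2A2, SLC2A3, SLC2A4, SLC2A5, SLC2A8, SLC2A10 and SLC2A12), and all 8 were found among the 21048 genes listed in both count tables. No measured value was part of the selection rule, but the genes were chosen with earlier results of these data known. RNA-seq was used from 6 fetuses, each giving 1 liver and 1 muscle library, so 12 libraries in all. Every fetus was a cross of Nelore (Bos taurus indicus) and Holstein (Bos taurus taurus) collected at about day 105 of gestation. The 2 Control-AI fetuses were conceived by artificial insemination. The 4 ART-Normal fetuses came from assisted reproduction, that is in vitro produced embryos, and had a body weight within the normal range. Groups of 4 and 2 fetuses are small, and p-values measure only the spread between these animals.

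GLUT proteins let sugars cross the cell membrane down their concentration gradient, without energy input, and so carry glucose in either direction. The members differ in affinity, in the sugar they prefer, and in whether they sit at the cell surface or wait in vesicles inside the cell. In adult tissue SLC2A2 is the transporter of hepatocytes and SLC2A4 that of insulin-responsive muscle and fat, whereas SLC2A1 is abundant in fetal and proliferating cells, red cell precursors among them. The fetal liver is also a blood-forming organ.

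Total counts per library ranged from 12433300 to 43339598, and 3 counts, the limit that a count of 0 allows, corresponded to 0.0692 to 0.241 CPM, the counts of a gene scaled to a fixed library total. The tissue labels were checked with markers. All 8 hepatocyte markers were called higher in liver and all 8 skeletal muscle markers were called higher in muscle. The filter, 5 CPM in every library of a tissue, favoured these calls. Through liver alone 7 of the hepatocyte markers passed it, and through muscle alone all 8 muscle markers. Of all 12449 genes tested, 40.8% were called higher and 40.7% lower in liver. Hepatocyte markers summed to at least 29878 CPM in liver and at most 368 CPM in muscle. Skeletal muscle markers summed to at least 19028 CPM in muscle and at most 38.6 CPM in liver. One fetus, Control-AI 2, stood apart in both tissues: it lay at -58.0 on the first principal component in liver and -58.9 in muscle, with all other libraries of the tissue above 0. Its hepatocyte markers summed to 342256 CPM in liver, against 29878 to 57639 CPM in the other 5 livers. Most of that sum was AHSG (148974 CPM), ALB (74769 CPM), SERPINA1 (58929 CPM) and AFP (41272 CPM). APOA2 (5191 against at most 3538 CPM) and FGB (9312 against at most 8397 CPM) were also highest there. APOA1 (1578 CPM) and TTR (2230 CPM) lay within the range of the other livers, 1534 to 2479 and 1358 to 2592 CPM. Each library was also set against the mean of the other 5 of its tissue, for genes overlapping an opposite-strand gene at least 16-fold more abundant (and at 50 CPM or more). In Control-AI 2, 250 such genes in liver and 263 in muscle had a median log2 ratio of 0.98 and 1.24. For its genes without an opposite-strand neighbour, the medians were -0.45 and -0.0026. In every other library the median of such overlapping genes lay between -0.37 and -0.24, where the mean compared with includes Control-AI 2. Values that depend on this fetus are given below with and without it.

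All 8 genes were placed on the ARS-UCD1.2 assembly, and reads had been counted over the whole span of each gene, introns included. SLC2A1 (gene identifier 282356) lies at chr3:103309108-103337308 on the plus strand, SLC2A2 (282357) at chr1:96452863-96485584 on the plus strand, SLC2A3 (282358) at chr5:101438340-101451254 on the minus strand, and SLC2A4 (282359) at chr19:26984018-26989772 on the plus strand. SLC2A5 (282868) lies at chr14:82358501-82387449, SLC2A8 (282867) at chr11:98149418-98158448 and SLC2A10 (516135) at chr13:75368042-75380005, all on the plus strand. SLC2A12 (497031) lies at chr9:72148823-72225025 on the minus strand. Only 2 of these spans overlap a gene on the other strand. SLC2A1 shares 598 bases with LOC614376, and SLC2A12 shares 3999 bases with TBPL1, a TBP-related transcription factor gene. The counting of strand is not given in the sources used here, so reads from such a pair cannot be told apart with certainty.

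The levels below are CPM after TMM normalization over the 12 libraries, listed for ART-Normal 1, 2, 3 and 4 and then for Control-AI 2 and 4. SLC2A1, which encodes the basal transporter GLUT1, stood in liver at 754, 798, 769.7 and 886 CPM in the ART-Normal fetuses and at 804 and 763 CPM in the controls. In muscle it stood at 35.7, 34.5, 49.4 and 47.3 CPM and at 36.1 and 33.6 CPM. Every liver was far above every muscle, and the 6 livers lay within 1.17-fold of each other. The log2 fold change of liver over muscle was 4.34 (SE 0.13), a 20.3-fold difference, with an edgeR adjusted p of 7.34e-13, and 5.12% of the tested genes had a larger one. LOC614376, on the other strand, was higher in the liver of Control-AI 2 (122 CPM) than in the other 5 livers (48.3 to 60.0 CPM), whereas SLC2A1 in that library lay within the range of the others. Of 10 markers of erythroid cells, 8 were tested and all 8 were called higher in liver, 7 of which had passed the filter through liver alone. They summed to 5872 to 25018 CPM in liver, the highest being Control-AI 2 and the next 6804 CPM, and to 93.8 to 649.1 CPM in muscle. Their part in the SLC2A1 level was not tested.

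**Figure D1:**
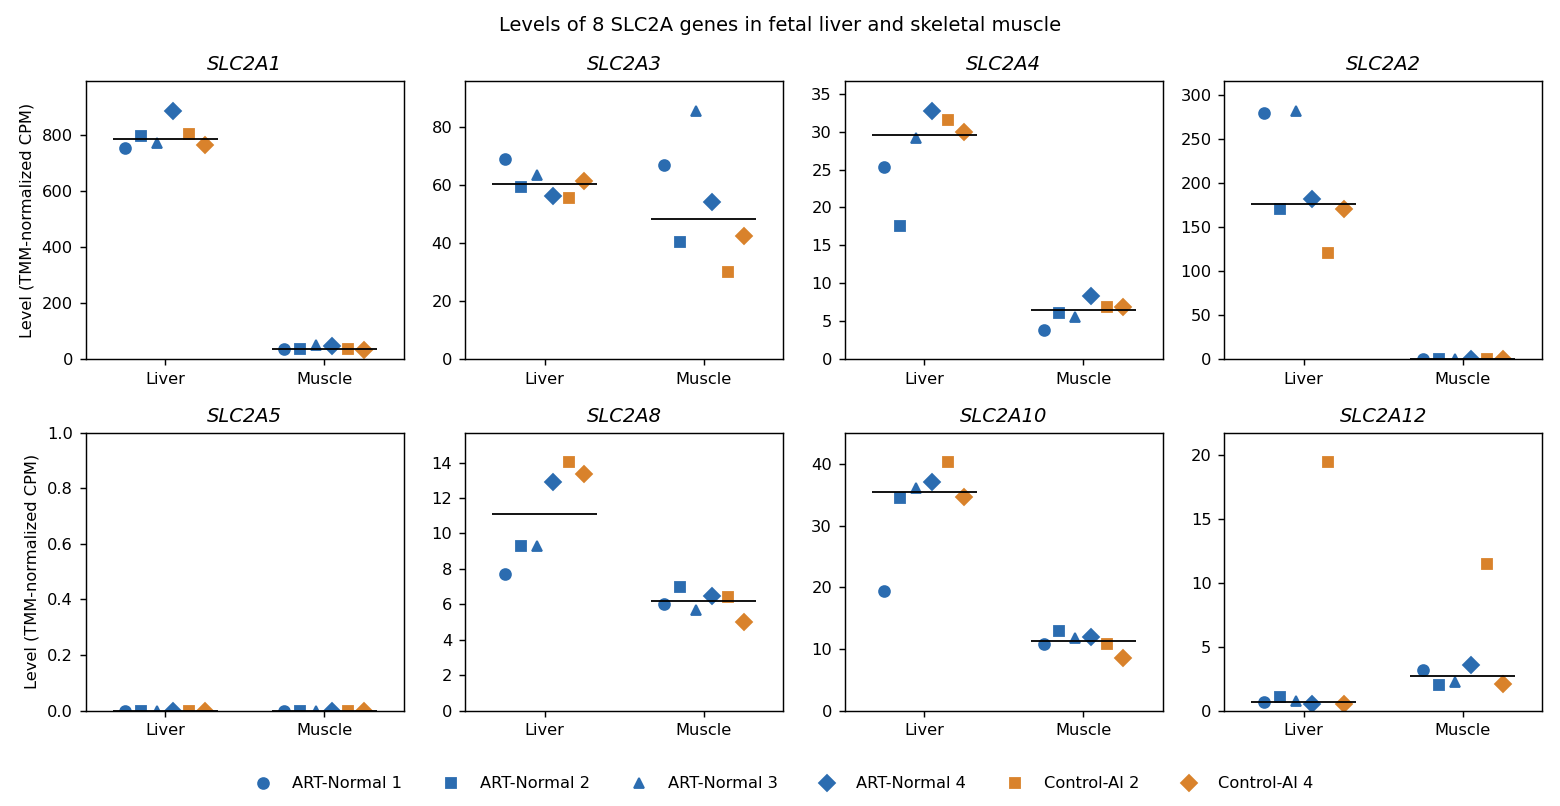
TMM-normalized CPM (y axis, linear, starting at 0, a scale of its own per panel) of the 8 SLC2A genes in liver and muscle, with 1 point per library (blue, ART-Normal; orange, Control-AI; symbol, replicate number) and a line at the median of the 6 libraries. SLC2A1 and SLC2A2 separate the tissues fully, SLC2A3 overlaps between them, SLC2A5 is at 0 throughout, and SLC2A12 is high in Control-AI 2 alone.

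SLC2A3 encodes the high-affinity transporter GLUT3, known from neurons, placenta and white blood cells. Its levels in liver were 69.0, 59.5, 63.5 and 56.5 CPM in the ART-Normal fetuses and 55.5 and 61.4 CPM in the controls. In muscle they were 67.1, 40.5, 85.7 and 54.1 CPM and 30.0 and 42.5 CPM. The tissues overlapped, and muscle varied more, with 2.86-fold between its highest and lowest library against 1.24-fold in liver. The log2 fold change of liver over muscle was 0.23 (SE 0.18, edgeR adjusted p = 0.241). It became a call only without ART-Normal 3, the fetus with the highest muscle value (0.38, edgeR adjusted p = 0.0492). The 8 macrophage and neutrophil markers summed to 388 to 513 CPM in liver and 50.9 to 75.6 CPM in muscle. All 8 were called higher in liver, unlike SLC2A3, against 40.8% of all genes tested. However, 6 of the 8 had passed the filter through liver alone, which favours such a call. The part of these markers in the SLC2A3 level was not tested.

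SLC2A4 encodes GLUT4, the transporter that insulin and contraction bring to the surface of adult muscle and fat cells. In the fetal liver it stood at 25.3, 17.6, 29.1 and 32.7 CPM after assisted reproduction and at 31.5 and 30.0 CPM in the controls. In muscle it stood at 3.77, 6.12, 5.61 and 8.38 CPM and at 6.84 and 6.87 CPM. Liver was therefore higher than muscle in all 6 fetuses, and the tissues did not overlap. The log2 fold change was 2.15 (SE 0.19, edgeR adjusted p = 8.28e-08), or 4.42-fold. SLC2A4 passed the filter of 5 CPM only through liver, which favours a call in that direction. Even so, 91 to 169 reads were counted in each muscle library. The skeletal muscle markers summed to 7.17 to 38.6 CPM in liver against 19028 to 28301 CPM in muscle. Among the 5 adipocyte markers, FABP4 and LEP were at 0 in every liver and ADIPOQ was at 0 in 4 of the 6, while the lipid droplet genes CIDEC (7.91 to 16.5 CPM) and PLIN1 (2.26 to 3.31 CPM) were detected in all 6. The 5 markers summed to 10.99 to 19.3 CPM in liver and 3.54 to 7.29 CPM in muscle. Only CIDEC had the higher median in liver, as SLC2A4 did, with 0.0435 to 0.150 CPM in muscle. PLIN1 (2.81 to 6.54 CPM in muscle), FABP4 (0.0435 to 0.610 CPM) and LEP (0.0407 to 0.826 CPM) had the higher median in muscle. ADIPOQ had a median of 0 CPM in both tissues. The part of these 5 markers in the SLC2A4 level was not tested.

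SLC2A2 encodes GLUT2, the low-affinity transporter through which hepatocytes take up and release glucose. Its liver levels were 279.9, 171, 282 and 182 CPM after assisted reproduction and 121 and 170.5 CPM in the controls. ART-Normal 1 and 3 were the highest and Control-AI 2 the lowest, and the range was 2.33-fold. In muscle only 2 to 11 reads were counted per library, 30 in all (exact 95% Poisson interval 20.2 to 42.8, counting error only), for 0.119 to 0.447 CPM. Liver exceeded muscle by a fitted log2 fold change of 9.67 (SE 0.29, edgeR adjusted p = 9.72e-13), a value that rests on those few muscle reads. SLC2A2 also passed the filter through liver alone, which favours a call in that direction. For the summed hepatocyte markers, the muscle library of Control-AI 2 was also highest, at 368 CPM against 25.2 to 63.5 CPM. Its SLC2A2 level was 0.150 CPM (2 reads), within the range of the other muscles. The part of these markers in the muscle SLC2A2 level was not tested.

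SLC2A5 encodes the fructose transporter GLUT5 of the small intestine. No read was assigned to the entry listed under this symbol in any of the 12 libraries, which allows at most 0.0692 to 0.241 CPM per library. Whether that entry holds the locus of the gene was not examined, since no sequence was used, so the 0 describes the listed entry alone. LOC107131287 on chromosome 16, whose neighbours include genes that lie next to SLC2A5 in other mammals, had 3 reads in the liver of Control-AI 4 (0.129 CPM) and 0 in every other library. Neither could be tested in any comparison.

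SLC2A8 encodes GLUT8, which resides on membranes inside the cell. Among the ART-Normal livers it was measured at 7.73, 9.30, 9.29 and 12.9 CPM, and among the control livers at 14.02 and 13.4 CPM. In muscle it was measured at 6.03, 6.96, 5.70 and 6.45 CPM and at 6.39 and 5.004 CPM. All 6 livers lay above all 6 muscles, with a narrow gap from 6.96 to 7.73 CPM. The log2 fold change was 0.85 (SE 0.17, edgeR adjusted p = 0.000293), or 1.80-fold.

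SLC2A10 encodes GLUT10, linked to connective tissue through an inherited arterial disorder. Its liver levels were 19.5, 34.6, 36.2 and 37.1 CPM after assisted reproduction and 40.3 and 34.7 CPM in the controls, so 5 livers were close and ART-Normal 1 was low. Its muscle levels were 10.8, 12.9, 11.8 and 11.9 CPM and 10.8 and 8.58 CPM. The tissues did not overlap, and the log2 fold change was 1.60 (SE 0.17, edgeR adjusted p = 4.86e-07), or 3.03-fold. All 6 connective tissue markers were called lower in liver, the opposite direction to SLC2A10, against 40.7% of all genes tested. They summed to 553 to 1178 CPM in liver and 20585 to 26854 CPM in muscle. Of the 6, 1 had passed the filter through muscle alone, which favours such a call. The part of these markers in the SLC2A10 level was not tested.

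SLC2A12 encodes GLUT12, known from insulin-sensitive tissues. In liver it was at 0.644, 1.09, 0.767 and 0.507 CPM after assisted reproduction, while Control-AI 2 had 19.4 CPM and Control-AI 4 had 0.515 CPM. In muscle it was at 3.17, 2.00, 2.22 and 3.57 CPM, while Control-AI 2 had 11.5 CPM and Control-AI 4 had 2.12 CPM. Thus Control-AI 2 alone was high, in both tissues. The overlapping TBPL1 did not share this pattern, with 42.1 CPM in the liver of Control-AI 2 against 37.9 to 56.5 CPM in the other livers, and 17.4 CPM in its muscle against 16.8 to 19.5 CPM. As a ratio of CPM, SLC2A12 amounted to 46.1% of the TBPL1 level in the liver of Control-AI 2 and to 1.10% to 2.31% in the other livers, and to 65.9% and 10.6% to 19.8% in the muscles. Which strand the SLC2A12 reads of Control-AI 2 came from was not tested. SLC2A12 passed the filter in neither tissue. Without Control-AI 2, muscle (2.00 to 3.57 CPM) was above liver (0.507 to 1.09 CPM) in all 5 remaining fetuses.

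**Figure D2:**
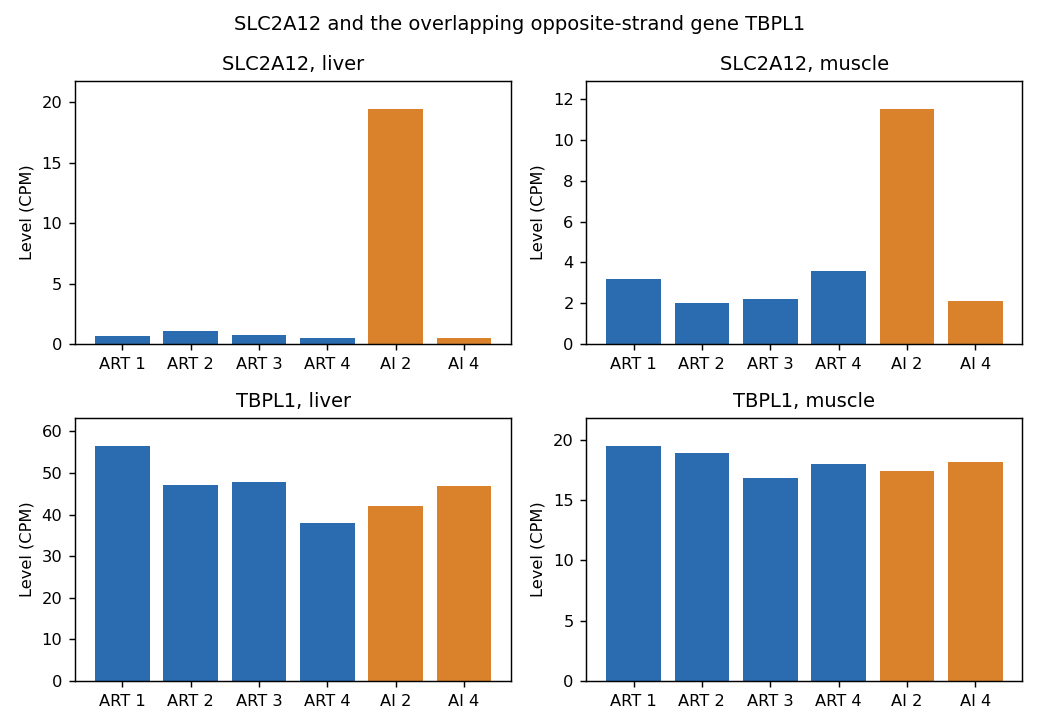
CPM (y axis, linear, starting at 0) of SLC2A12 in the upper panels and of TBPL1, the gene that overlaps it on the other strand, in the lower panels, with 1 bar per library (blue, ART-Normal; orange, Control-AI, shortened to ART and AI). SLC2A12 is at 19.4 CPM in the liver and 11.5 CPM in the muscle of Control-AI 2 and at most 1.09 and 3.57 CPM elsewhere, while TBPL1 differs little between libraries of a tissue.

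Levels can be set beside each other between genes only per length, here as CPM per kilobase of gene span. Introns lie within the span, so long genes such as SLC2A12 (76203 bases) are understated against compact ones such as SLC2A4 (5755 bases). In liver the order of the mean levels was SLC2A1 (28.2), SLC2A2 (6.14), SLC2A4 (4.81), SLC2A3 (4.71), SLC2A10 (2.82), SLC2A8 (1.23) and SLC2A12 (0.0502 CPM per kilobase, or 0.00924 without Control-AI 2). Over the 6 livers, SLC2A2 overlapped SLC2A4, and SLC2A4 overlapped SLC2A3, while all other neighbours in this order were apart. In muscle the order was SLC2A3 (4.13), SLC2A1 (1.40), SLC2A4 (1.09), SLC2A10 (0.931), SLC2A8 (0.674), SLC2A12 (0.0538, or 0.0343 without Control-AI 2) and SLC2A2 (0.00709 CPM per kilobase). In the run from SLC2A1 to SLC2A8 each gene overlapped the next, whereas SLC2A3 stood clear above them at 2.32 to 6.64 CPM per kilobase.

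The comparison of the tissues asked where each transporter is expressed. Of the 8 members, 4 passed the filter in both tissues (SLC2A1, SLC2A3, SLC2A8 and SLC2A10), and 3 of these were called higher in liver, SLC2A3 being the exception. SLC2A2 and SLC2A4 passed only through liver and were also called higher there, and SLC2A5 and SLC2A12 were not tested. Of all 12449 genes tested, 81.5% were called in this comparison and 40.8% were called higher and 40.7% lower in liver, so a call by itself sets no gene apart. Bulk tissue was measured, so that fewer cells of a type and less RNA per cell cannot be told apart. The 5 calls held when each fetus was left out in turn, Control-AI 2 included, and with the fetus as a block.

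Within each fetus, the log2 ratio of liver over muscle (CPM plus 0.5) was 3.95 to 4.51 for SLC2A1, 7.50 to 8.82 for SLC2A2, 1.45 to 2.59 for SLC2A4, 0.82 to 1.95 for SLC2A10 and 0.33 to 1.33 for SLC2A8. All of these were above 0 in 6 of 6 fetuses. A two-sided exact sign-flip permutation test gave p = 0.0312 for each of the 5 genes, the smallest value that 6 fetuses allow. For SLC2A3 the ratios ran from -0.43 in ART-Normal 3 to 0.88 in Control-AI 2 and were above 0 in 5 of 6 fetuses (exact p = 0.156). For SLC2A12 they ran from -2.01 to 0.73 and were above 0 in Control-AI 2 alone (exact p = 0.0938). In all, 7 such tests were run, and the 5 smallest p-values are at the limit of the design.

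**Figure D3:**
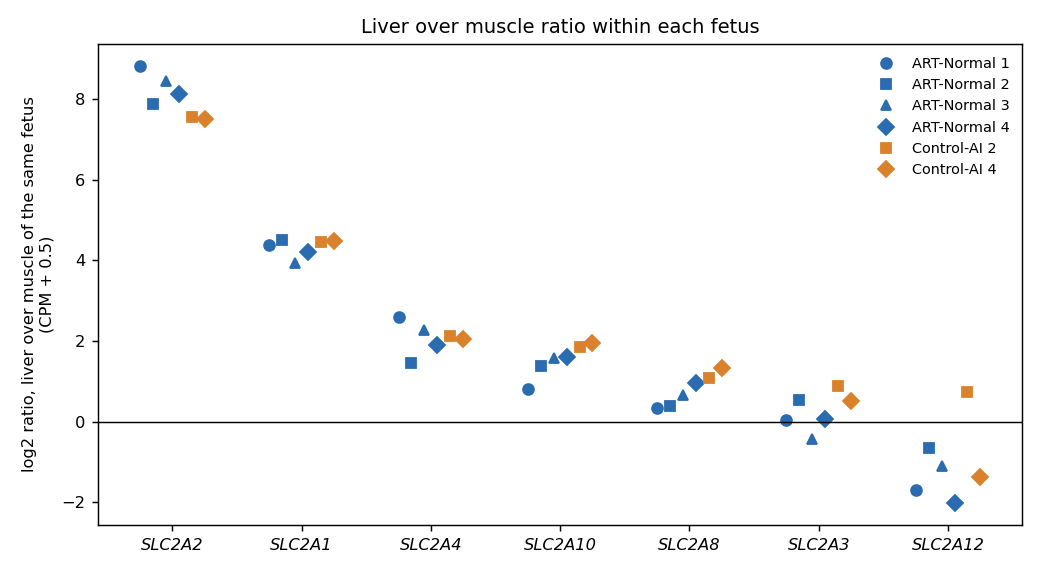
The log2 ratio of liver over muscle within a fetus (y axis, CPM plus 0.5) for the 7 SLC2A genes with reads, with 1 point per fetus (blue, ART-Normal; orange, Control-AI; symbol, replicate number) and a line at 0, equal levels. All 6 fetuses lie above the line for SLC2A2, SLC2A1, SLC2A4, SLC2A10 and SLC2A8, 5 of 6 for SLC2A3, and 1 of 6, Control-AI 2, for SLC2A12.

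The comparison of conception groups asked whether in vitro production altered the transporters in fetuses of normal weight. In liver, 6 members were tested and 0 were called by edgeR's quasi-likelihood test, as for all 11304 genes tested (0.0% called, 8.39% at an unadjusted p under 0.05). The liver glucose transporter SLC2A2 had the largest difference among the members, ART-Normal being higher by a log2 fold change of 0.65 (SE 0.25, edgeR adjusted p = 0.561, 0.0278 before adjustment). Its 4 ART-Normal livers all lay above both controls, but ART-Normal 2 and Control-AI 4 differed by less than 1 CPM. Leaving out Control-AI 2 gave 0.43, and leaving out Control-AI 4 gave 0.91. Control-AI 2, the lowest library for SLC2A2, was the highest for the summed hepatocyte markers, though not for APOA1 or TTR singly. The part of these markers in the SLC2A2 difference was not tested. An exact permutation test of 4 against 2 fetuses cannot give a two-sided p below 0.0667, and it gave 0.133 for SLC2A2. SLC2A8 lay lower in all 4 ART-Normal livers than in either control, with a log2 fold change of -0.48 (SE 0.23, edgeR adjusted p = 0.589). Among all tested genes, 18.4% had groups that did not overlap in liver, 9.2% with ART-Normal higher and 9.17% with it lower. The other 4 members overlapped between groups, at 0.03 (SE 0.16) for SLC2A1, 0.08 (SE 0.14) for SLC2A3, -0.24 (SE 0.23) for SLC2A4 and -0.24 (SE 0.24) for SLC2A10.

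In muscle, 5 members were tested and 0 were called, against 0.00855% of the 11695 genes tested (9.19% at an unadjusted p under 0.05). SLC2A3 had the largest value, a log2 fold change of 0.77 (SE 0.27, edgeR adjusted p = 0.418, 0.0156 before adjustment). Its groups overlapped, since ART-Normal 2 (40.5 CPM) lay below Control-AI 4 (42.5 CPM). The value moved with single libraries, since leaving out Control-AI 2 gave 0.54, leaving out ART-Normal 3 gave 0.58, and leaving out Control-AI 4 gave 1.06. The last was a call (edgeR adjusted p = 0.0371), with Control-AI 2, the fetus that stood apart, as the 1 control left and assumed to vary like the other group. SLC2A10 was higher in all 4 ART-Normal muscles than in either control, with a log2 fold change of 0.30 (SE 0.19, edgeR adjusted p = 0.692), but ART-Normal 1 and Control-AI 2 both stood at 10.8 CPM. Groups did not overlap for 15.9% of all genes tested in muscle, 7.98% with ART-Normal higher and 7.93% with it lower. SLC2A1 (0.27, SE 0.18), SLC2A8 (0.16, SE 0.22) and SLC2A4 (-0.20, SE 0.29), the last of which passed the filter through the controls alone, overlapped between groups.

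**Figure D4:**
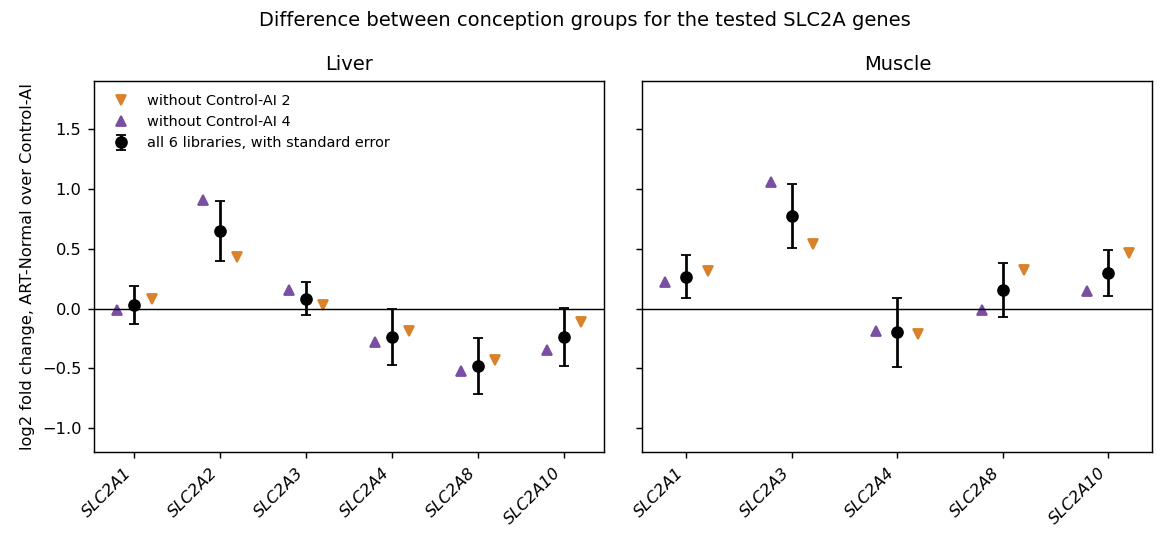
Difference between conception groups, ART-Normal relative to Control-AI, on the log2 scale (y axis) of the SLC2A genes tested in liver and in muscle, as black points with standard errors for all 6 libraries of a tissue, and as triangles without Control-AI 2 (orange) or without Control-AI 4 (purple). In liver SLC2A2 moves between 0.43 and 0.91, and in muscle SLC2A3 moves between 0.54 and 1.06 as 1 control or the other is left out.

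SLC2A12 did not reach the filter, and its values in this comparison rested on Control-AI 2, the fetus that stood apart. Without a filter its log2 fold change was -3.66 in liver (edgeR adjusted p = 0.154) and -1.26 in muscle (edgeR adjusted p = 0.410). The ART-Normal levels of 0.507 to 1.09 CPM in liver and 2.00 to 3.57 CPM in muscle enclosed those of Control-AI 4, at 0.515 and 2.12 CPM.

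A test of whether the conception difference itself differed between liver and muscle called 0 of the 6 members tested, as for all 12923 genes (0.0% called, 5.5% at an unadjusted p under 0.05). The differences of log2 fold changes, liver minus muscle, were 1.41 (SE 0.75, edgeR adjusted p = 0.929) for SLC2A2, where the muscle part rests on 30 reads, and -0.68 (SE 0.34, edgeR adjusted p = 0.929) for SLC2A3. They were -0.62 (SE 0.33) for SLC2A8, -0.53 (SE 0.32) for SLC2A10, -0.22 (SE 0.24) for SLC2A1 and -0.03 (SE 0.40) for SLC2A4.

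The genes around glucose transport were then described in groups, as counts and medians of the liver over muscle log2 fold change beside the median of 0.01 over all genes tested. Of the other SLC2A genes listed, 2 of 5 were tested. SLC2A9, a urate transporter, was higher in liver (2.42, SE 0.14, edgeR adjusted p = 7.38e-10), and SLC2A13, a proton and myo-inositol transporter, stood at 0.38 without a call. Of 5 sodium-coupled transporters, which move sugar against its gradient, 1 was tested. This gene, SLC5A9, stood at 16.5 to 24.2 CPM in liver and 0.0794 to 0.522 CPM in muscle. It passed the filter through liver alone, which favours a call in that direction. SLC5A2, like SLC2A12, was high in Control-AI 2 alone, at 23.7 CPM in its liver and 17.1 CPM in its muscle, against at most 0.485 and 1.43 CPM elsewhere.

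The enzymes that phosphorylate sugar after entry, or release it, were split between the tissues. Of 7 tested out of 12 listed, 4 were called higher and 2 lower in liver, with a median of 1.83. Among all genes tested, 40.8% were called higher and 40.7% lower. HKDC1, a hexokinase-like gene, stood at 45.3 to 94.5 CPM in liver and at 0 in 5 of 6 muscles. HK2, the hexokinase of muscle, stood at 3.40 to 9.06 CPM in liver and 23.8 to 42.7 CPM in muscle. Of the 7, 1 passed the filter through liver alone and 2, HK2 among them, through muscle alone, which favours a call in that direction. HK1, the common hexokinase, stood at 187 to 215 CPM in liver and 35.2 to 47.3 CPM in muscle. It was named after its values were seen.

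Most genes of the machinery that stores SLC2A4 protein in vesicles and moves it to the surface were lower in liver, the opposite direction to SLC2A4. All 13 genes of that list were tested, and 10 were called lower and 2 higher in liver, with a median of -0.55. The shares over all genes tested were 40.7% lower and 40.8% higher. EHD2, a membrane-shaping ATPase, fell by 4.58 on the log2 scale in liver against muscle (SE 0.13, edgeR adjusted p = 6.48e-13). TBC1D4, which holds SLC2A4 vesicles back until insulin acts, was 22.4 to 28.6 CPM in liver and 198 to 229 CPM in muscle (-3.07, SE 0.08), and RHOQ, a small GTPase of the insulin response, differed by -2.98 (SE 0.13). Of the 9 genes that carry the insulin signal to transport, 4 were called higher and 3 lower, with a median of -0.16. These counts lie near the shares over all genes tested. IRS2, an adaptor of the insulin receptor, was higher in liver (2.91, SE 0.16), and the kinase genes AKT1 (-2.06, SE 0.11) and PIK3CA (-0.81, SE 0.11) were higher in muscle.

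Of the 20 known regulators of SLC2A genes, 13 were called higher and 7 lower in liver, with a median of 1.10. Over all genes tested, these shares were 40.8% and 40.7%. However, 7 of the 20 passed the filter through liver alone, which favours a call in that direction. The 3 with the largest differences, ONECUT1, FOXA2 and HNF4A, encode transcription factors of hepatocytes. HNF4A was 222 to 291 CPM in liver and at most 0.446 CPM in muscle, FOXA2 was 54.1 to 63.8 and at most 0.150 CPM, and ONECUT1 was 20.0 to 33.5 and at most 0.0496 CPM. Their levels separated the tissues, as that of SLC2A2 did.

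**Figure D5:**
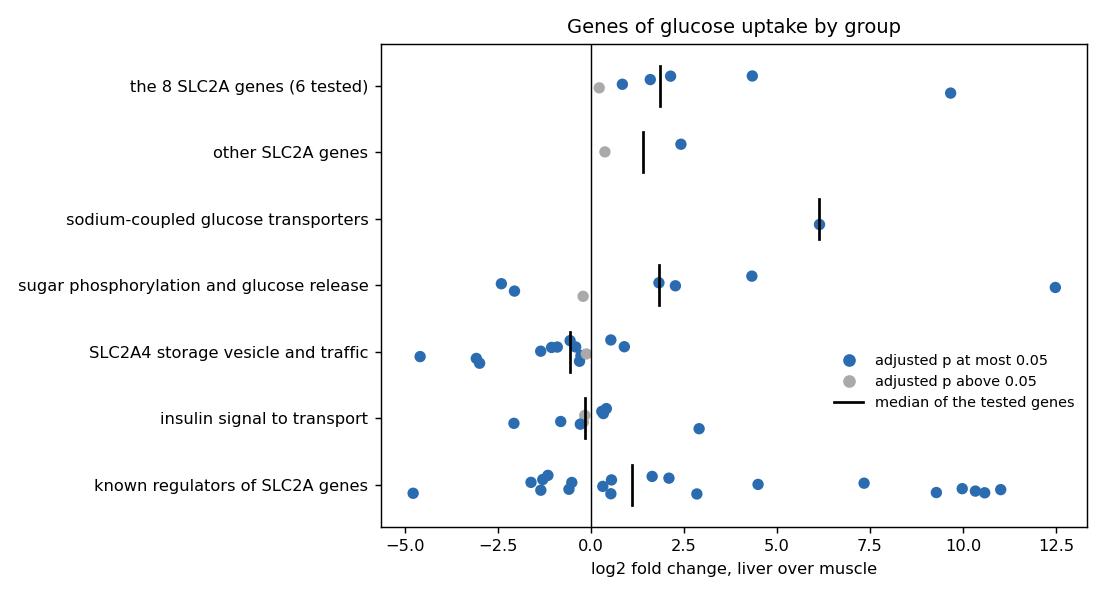
The log2 fold change of liver over muscle (x axis) of each tested gene in 7 groups of glucose uptake genes, in blue where the edgeR adjusted p was at most 0.05 and in grey otherwise, with a black bar at the median of each group (vertical scatter within a group carries no value). The SLC2A genes lie to the right of 0, whereas 10 of the 13 SLC2A4 storage and traffic genes are called to the left, as are 40.7% of all genes tested. The regulators run from -4.77 (MEF2C) to 11.01 (ONECUT1).

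Between conception groups, 0 genes were called in any of these 6 lists in either tissue by edgeR's quasi-likelihood test. In liver, 4 of 20 regulators and 1 of 9 insulin signal genes had an unadjusted p under 0.05, against 8.39% of all genes tested. In muscle these were 1 of 13 regulators, 1 of 9 insulin signal genes and 1 of 2 other SLC2A genes, against 9.19%. SLC2A13 in muscle (0.77, edgeR adjusted p = 0.493) had 5.64 CPM in Control-AI 2 and 14.03 to 20.5 CPM elsewhere.

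The genes whose pattern was most like that of a member were found by Pearson's r of log2 CPM over the 12 libraries, among the 12448 other genes tested. These values describe mostly the split between tissues, which all libraries share, and carry no test. The nearest were PTK2B, CGN and BCL2L1 for SLC2A1 (r = 0.999 for each), SLC38A4, ACSL6 and FHDC1 for SLC2A2 (0.998 for each), and TPP1, TALDO1 and RPN1 for SLC2A4 (0.990 to 0.984). For SLC2A8 they were CORO1B, FAM234A and CYC1 (0.966 to 0.963), and for SLC2A10 FAM234A, CANT1 and SLC17A9 (0.986 for each). SLC2A3, the member with no call between the tissues, had the lowest values, with ARHGAP42, KALRN and MAML3 at 0.922 to 0.909.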

How the data were processed

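RNA was sequenced from frozen liver and muscle, and the authors deposited 1 table of raw, unnormalized gene counts per tissue. The submitters' processing notes name FastQC 0.11.7, HISAT2 2.1.0, Cufflinks, SAMtools, featureCounts, edgeR 3.24.3 and the build ARS-UCD1.2. Each of the 21048 listed lengths equals the gene's whole span. Of 13 count columns per tissue, 7 (14 in all) were not matched to samples and not used. The labels also list 5 kidney libraries, not analysed here. The authors' own tables of fold changes, p-values and FDR were not used.

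From the deposited counts, edgeR 4.0.16 in R 4.3.3 gave TMM-normalized CPM, log2 fold changes, standard errors and two-sided quasi-likelihood p-values with Benjamini-Hochberg adjustment over all genes tested (threshold 0.05). A gene was tested where every library of 1 tissue (tissue comparison) or of 1 group (the others) reached 5 CPM. The tissue fit had conception as a covariate and no term for the fetus, so its p-values left out the pairing of liver and muscle. Liver and muscle of a number came from the same fetus by the labels. Their deviations from group means correlated at 0.22, 0.04, 0.06 and 0.33 for ART-Normal 1 to 4 and at 0.33 for the controls. The 2 controls share this 1 value by construction, since deviations from a mean of 2 mirror each other. Between conception groups a shared number marks different animals. The procedures were tested on simulated data with 200 changed genes. Alternatives were other normalizations and filters, edgeR's likelihood ratio test, DESeq2 1.42.0, ART-Normal 1 to 3 alone, a replicate block, 1 fit for both tissues, and leaving out each fetus. Python 3.11.15, SciPy 1.17.1 and Matplotlib 3.10.9 were used for exact tests and plots.

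All 8 members are named, and from each list up to 3 genes with the largest absolute log2 fold change among those called (or tested, where none was called). For likeness, 3 genes per member are named. Some genes of these lists are not reported here. Exceptions are TBPL1, LOC614376, LOC107131287, SLC5A2, SLC2A13, HK1 and MEF2C, and the hepatocyte, erythroid and adipocyte markers, named after their values were seen. The members and lists were chosen with earlier results of these data known.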

Additional observations from a re-analysis of the deposited data

Results flagged for a closer look

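Of 14 groups of 4 ART-Normal libraries examined (7 SLC2A genes in 2 tissues), 1 held a library far from the others. SLC2A10 in the liver of ART-Normal 1 was at 19.5 CPM, against 34.6 to 37.1 CPM in the other 3, and the gap made up 0.855 of the range of the 4, above Dixon's 95% critical value for a group of this size. Chance alone flags about 1 in 20 such groups. Without this library the log2 difference between ART-Normal and Control-AI for SLC2A10 in liver was -0.06, against -0.24 with it, and neither was called.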

How the results depend on the processing

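Between liver and muscle, every call of a member that could be tested held under all alternatives, but SLC2A2 was not tested with at least 10 counts in every library, which left 4 members called. Library size alone moved the median log2 fold change of all genes to -0.13 between tissues and to 0.21 between conception groups in liver, and member values moved with it.

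Between conception groups, genes called in liver numbered 0, and 6 with library size alone, 89 by the likelihood ratio test, 56 by DESeq2, 2 with ART-Normal 1 to 3 only, 6 with the replicate block, 2 with both tissues in 1 fit, and 0 to 830 leaving out 1 library (members 0 to 1, SLC2A12). In muscle, 1 gene was called, and 120 by the likelihood ratio test, 106 by DESeq2, 0 with ART-Normal 1 to 3 only, 90 with the replicate block, and 0 to 1327 leaving out 1 library (members 0 to 2, SLC2A3 and SLC2A12). SLC2A12 passed the filter there only through Control-AI 2 as the 1 control left. For the difference between tissues, 0 were called, 98 by the likelihood ratio test, 37 by DESeq2, and 0 to 232 leaving out 1 fetus. The highest counts, 830, 1327 and 232, all came without Control-AI 4, which leaves Control-AI 2 alone. The replicate block pairs different animals, whose same-numbered libraries correlated at -0.16 to 0.00029. The cause of the other shifts was not tested. No member was called by either other test.

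The direction turned for small differences alone. SLC2A1 in liver was -0.0105 with upper quartile normalization, -0.0235 with ART-Normal 1 to 3 only, and -0.0235 to 0.0825 leaving out 1 library, below 0 without ART-Normal 4 or Control-AI 4. With the replicate block SLC2A3 in liver was -0.0145 and SLC2A4 in muscle 0.0746. SLC2A8 in muscle was -0.0120 to 0.33 leaving out 1 library, below 0 without Control-AI 4. The tissue difference of SLC2A4 was 0.19 with library size alone, 0.0543 with ART-Normal 1 to 3 only, and -0.18 to 0.14 leaving out 1 fetus, above 0 without ART-Normal 2, ART-Normal 4 or Control-AI 2. The order of members per length was computed on gene span only: the alternative with exonic length was not run, since no exonic lengths were used here.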

Other observations

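The genes below were named after their values were seen. G6PC, the enzyme that frees glucose for export through SLC2A2, ranged from 1.33 to 35.7 CPM in liver with a median of 2.09 CPM, and was at most 0.130 CPM in muscle. SLC5A10 had 9.25 CPM in the liver of Control-AI 2 and at most 0.323 CPM in other livers, but in muscle that fetus (4.28 CPM) lay within the range of the others. SLC2A11 had no read in any liver and 0.119 to 0.601 CPM in muscle. KHK, the ketohexokinase that starts fructose breakdown, stood at 1.61 to 6.29 CPM in liver and 10.05 to 14.4 CPM in muscle, and it passed the filter through muscle alone.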
